A study of Mus musculus with 6 samples.

Results

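The transcripts of mouse epididymis were compared with those of mouse testis on the 2 arrays that carried both tissues, out of 6 arrays in the series. These were the arrays titled with epididymis first and with testis first. The sign of the second was turned, probes were averaged over both arrays and then per gene, and all 18545 named genes were kept, from the most epididymal to the most testicular. The arrays held 2 colours, with the dyes Cy3 and Cy5 exchanged between the tissues. The other 4 arrays set each tissue against the stromal vascular fraction (SVF), the cells of fat other than adipocytes.

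Epididymis and testis each came from 1 RNA sample of mouse, and the labels give no strain, age, genotype, treatment or number of animals for either. Both arrays therefore measured the same RNA pair. No test between tissues is possible, no p-value is given, and the SD of 2 hybridisations leaves out any difference between animals. The values are log ratios read as log2 by convention, and each ratio was taken to have the Cy5 tissue, named first in its title, on top, so the direction is likely and not stated. The size rule for a gene to be counted for 1 tissue was a ratio of at least 2-fold (log2 of 1) towards it on both arrays. A second reading of each gene, called here the route through SVF, subtracts testis over SVF from epididymis over SVF on the other 4 arrays, which carried the same RNAs. It is given where it ended the call or turned the direction of a gene named here, and for several lists whose median it moved. Ratios carry no expression level, so markers at or near 0 in a tissue cannot be seen, and in bulk tissue fewer cells of a type and less RNA per cell cannot be told apart.

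The epididymis is the coiled duct in which spermatozoa from the testis mature, acquire motility and are stored. Its principal cells secrete small proteins into the lumen, many from gene families that arose by local duplication, among them the beta-defensins, lipocalins and protease inhibitors. Narrow and clear cells acidify the lumen, basal cells lie under the epithelium, and smooth muscle surrounds the duct. The testis makes the germ cells, from spermatogonia through meiosis to elongating spermatids, together with Sertoli cells, which nurse them, and Leydig cells, which make testosterone.

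Of the 18545 genes, 2653 were higher in epididymis, which is 14.3%, and 3342 were higher in testis, which is 18.0%. The remaining 12550 genes (67.7%) met the size rule in neither direction. The tails had different shapes. At 4-fold or more on both arrays there were 926 genes higher in epididymis and 1781 higher in testis. At 16-fold or more the counts were 82 for epididymis and 59 for testis, and at 32-fold or more 28 for epididymis and 0 for testis. The highest mean ratio was 8.19 and the lowest -5.32, so the epididymal tail was thin and long and the testicular tail broad and short.

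**Figure D1:**
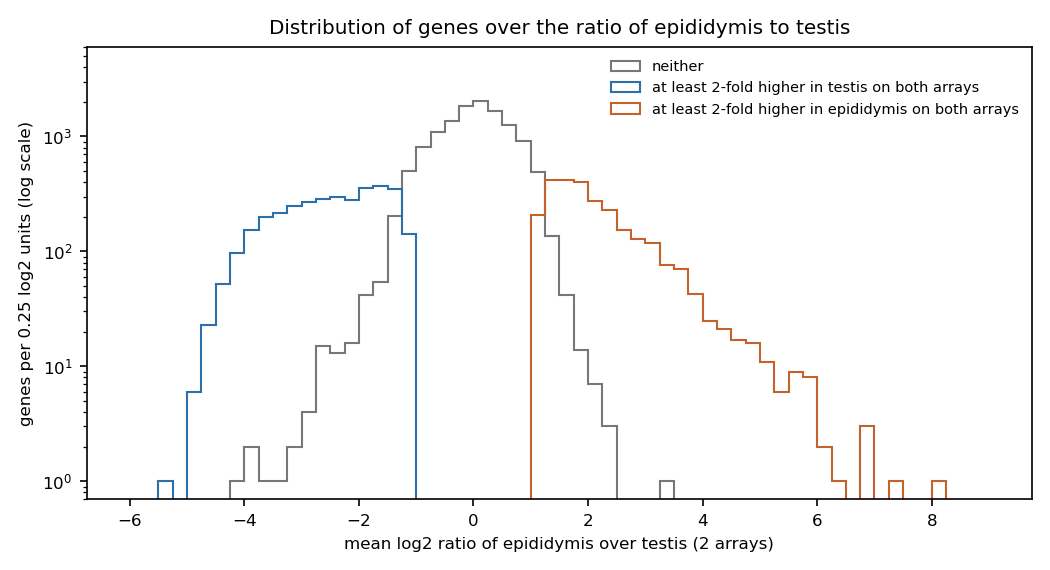
Number of genes per 0.25 log2 units of the mean ratio of epididymis over testis, on a log scale, drawn as separate outlines for genes higher in testis, genes higher in epididymis and genes that met the rule in neither direction. The epididymal outline reaches 8.19, while the testicular outline is wide down to about -4 and ends at -5.32.

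Across all genes the arrays correlated with Pearson's r of 0.81 and Spearman's rho of 0.75, a description over genes that share the same RNAs. The median SD between the arrays was 0.35 log2 units, and 1931 genes (10.4%) had an SD above 1. A group of 262 genes passed 2-fold in opposite directions on the 2 arrays. Of these, 194 read higher in testis on the array with epididymis in Cy5 and higher in epididymis on the other, and 68 the other way round. The widest gaps were those of Bmp8a, with -4.97 and 4.20, Rps6kc1, with -5.10 and 3.89, Sox2, with -4.67 and 3.82, Usf1, with -6.13 and 1.90, and Mt4, with -6.76 and 1.16. The 2 arrays assign none of the 262 to a tissue. By the route through SVF, 31 of them were at least 2-fold higher in epididymis and 8 in testis in both orientations. In what follows the value on the array with epididymis in Cy5 (array 1) is given before that on the array with testis in Cy5 (array 2).

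**Figure D2:**
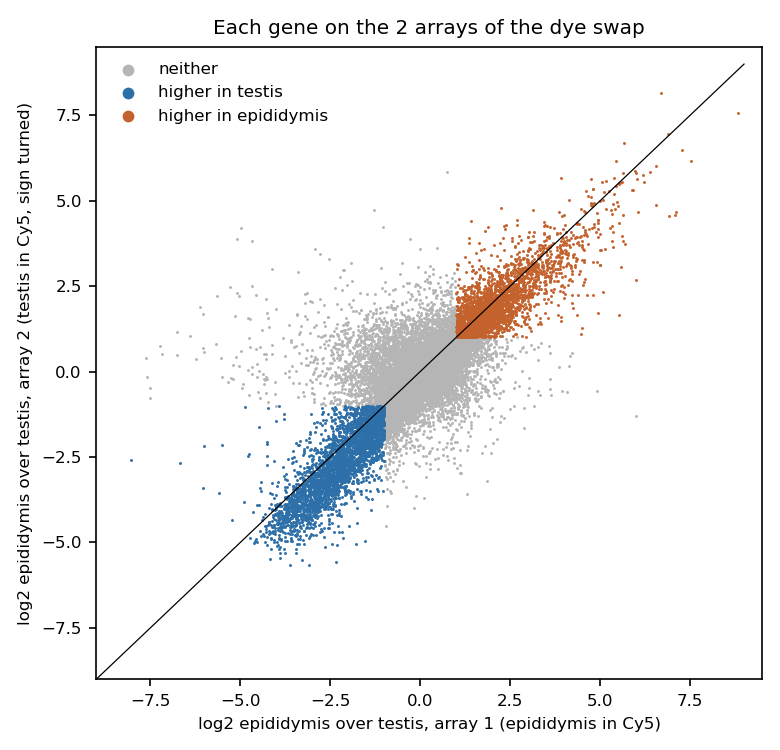
Each gene's log2 ratio of epididymis over testis on array 1 (horizontal axis) and array 2 (vertical axis, sign turned), with the line of equality. Genes counted for a tissue lie in the upper right and lower left corners, and a band of genes with strongly negative values on array 1 lies near 0 on array 2.

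The gene most in favour of epididymis was Pate6, of a family of small secreted cysteine-rich proteins. It read 8.83 and 7.55, a mean of 8.19 ± 0.90 or 292-fold. Defb12, a beta-defensin, followed with 6.69 and 8.15 (7.42 ± 1.03), and the homeobox gene Hoxb6 with 6.88 and 6.96 (6.92 ± 0.06). The protease inhibitor Spint4 read 7.28 and 6.47, and the tight junction gene Cldn14 read 7.52 and 6.16. The next 7 were Ceacam10, Egr2, Rnase10, Spink12, Serpinc1, Cstdc2 and Trim2, with means from 6.29 down to 5.90. Small secreted proteins and inhibitors of proteases made up 7 of these 12 names, and the others were of mixed function. Trim2 was the least even of them, with 7.12 and 4.68.

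At the other end, 6 of the 12 genes carried only a clone name. The lowest mean, that of 4930453L07Rik, rested on an uneven pair of values, -8.05 and -2.58. Genes with closely similar values on both arrays followed, such as 1700041C23Rik with -4.62 and -5.01, 4930523O13Rik with -4.72 and -4.88, and 1700048O14Rik with -4.58 and -4.94. Named genes among the 12 lowest were Vwa5b1, with -5.22 and -4.36, Cypt15, a cysteine-rich perinuclear theca gene of spermatids, with -4.54 and -4.99, and Iqub, with -4.57 and -4.89. Tmeff2 (-6.05 and -3.41), Ccdc89 (-3.89 and -5.46) and Samt1 (-4.25 and -5.08) were also in this group, with 4933438K21Rik and 1700016G14Rik. These 12 genes spanned a narrower range than the 12 at the epididymal end, with means from -5.32 to -4.67.

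Secreted families of the duct were described next. All 4 measured Pate genes were higher in epididymis. Besides Pate6, Pate13 read 4.15 and 5.01, Pate5 read 3.19 and 3.46, and Pate4 read 3.68 and 2.32. The lowest of them thus differed 8-fold between tissues on the mean.

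Of 26 measured beta-defensins, which are small antimicrobial peptides that also coat spermatozoa, 17 (65.4%) were higher in epididymis, 2 were higher in testis and 7 met the rule in neither direction. Their median was 3.85, with 3.93 on array 1 and 3.67 on array 2. Behind Defb12 stood Defb10, with an uneven 7.09 and 4.59, then Defb38 with 5.60 and 5.55, Defb15 with 5.23 and 5.27, and Defb1 with 4.75 and 5.64. The members that went the other way were Defb19 (-2.73 and -3.17) and Defb36 (-1.07 and -1.33), both of which also stood in the list of Sertoli cell genes. The family thus split between the tissues. Set against SVF, on arrays that share the same RNAs, the family's median was 4.13 for epididymis and 0.21 for testis.

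Lipocalins, carriers of small hydrophobic molecules, gave 7 of 9 members higher in epididymis and none higher in testis, with a median of 2.93. Lcn9 read 6.92 and 4.55, Lcn10 read 3.95 and 3.51, and Lcn8 read 4.43 and 2.96. Lcn5, the epididymal retinoic acid binding protein, read 3.51 and 2.36. The ratios of these lipocalins were larger on array 1 than on array 2. Lcn12, Lcn2 and the prostaglandin D synthase Ptgds, with 2.10 and 1.88, completed the members that met the rule, although Ptgds lost its call by the route through SVF (0.75), and Lcn3 and Lcn4 stayed within 1 log2 unit of 0.

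The inhibitors of proteases were divided. Among 7 Kazal-type inhibitors, Spink12 (6.18 and 5.77), Spink5 (5.54 and 5.50), Spink10 (5.47 and 4.96) and Spink8 (4.81 and 3.19) were higher in epididymis, while Spink1, Spink2 and Spink4 met the rule in neither direction. The route through SVF ended the call of Spink8 (1.60) and gave a median of 1.60 for the 7, against 4.81 on array 1 and 3.19 on array 2. Among 14 genes with WAP or Kunitz domains, 6 were higher in epididymis and 1 in testis, and the median was 0.31, with 0.08 on array 1 and 0.78 on array 2 (0.41 by the route through SVF). Over the members whose arrays lay within 1 log2 unit of each other it was 1.74. The 6 were Spint4, Wfdc15b (3.89 and 3.69), Spint1 (4.02 and 2.80), the sperm-coating Eppin (2.80 and 2.62), Slpi (2.48 and 2.56) and Spint2 (2.24 and 1.24). Wfdc15a, named as a relative of Wfdc15b, read -3.17 and -4.34, so these 2 symbols lay at opposite ends. Wfdc2, widely used as an epididymal marker in humans, read 0.17 and -0.42. Eppin lost its call by the route through SVF, with a mean of 1.53.

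Cystatins, inhibitors of cysteine proteases, also split. Cst11 (5.15 and 3.60), Cstb (3.16 and 3.00), Cst12 (2.24 and 1.97) and Cst3 (1.80 and 1.95) were higher in epididymis, whereas Cst13 (-3.94 and -4.91) and Cst9 (-3.56 and -4.20) were higher in testis. The other 5 of the 11 met the rule in neither direction. By the route through SVF Cst12 read -0.18, and Cst9 lost its call with a mean of -1.32. Of 38 serpins, 9 were higher in epididymis and 3 in testis. Serpinc1, antithrombin, led with 5.96 and 5.86, followed by Serpina1f with 4.95 and 4.16. Serpina6, the corticosteroid carrier, read -3.87 and -3.93 and Serpina5, the protein C inhibitor, read -3.02 and -3.04. The route through SVF lowered Serpina6 to -0.98, which ended its call. The median of the serpins was 0.26, with a change of sign on array 1, where it was -0.11.

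Among 7 members of the RNase A family, 4 were higher in epididymis and none in testis. Rnase10, a protein of the first part of the duct, read 6.38 and 5.83, Rnase9 read 4.26 and 3.42, Rnase4 read 3.97 and 2.34, and Rnase6 read 3.13 and 2.46. The angiogenins Ang2 and Ang4 and the pancreatic-type Rnase1 met the rule in neither direction. Of 10 cysteine-rich secretory proteins and their relatives, only Crisp3 was higher in epididymis, with 4.41 and 4.31. Crisp2, a protein of the acrosome and tail, read -2.55 and -3.39, Glipr1l1 read -3.43 and -4.78, and Glipr1l2 read -4.45 and -4.65. Members of these families resemble each other in sequence, and binding of a probe to a related transcript was not tested.

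Enzymes that protect against peroxides were mostly on the epididymal side. Of 16 glutathione peroxidases, peroxiredoxins, superoxide dismutases and catalase, 9 (56.2%) were higher in epididymis and 2 in testis. Gpx8 read 3.41 and 3.66, the secreted Gpx3 read 3.56 and 2.79, the cytosolic Gpx1 read 2.24 and 2.83, and Prdx1 read 2.07 and 1.89. On the testicular side were Gpx4, the enzyme that becomes a structural part of the sperm midpiece, with -1.46 and -1.61, and Prdx4, with -2.86 and -2.29. Glutathione transferases gave 9 of 23 higher in epididymis and 4 higher in testis. The mu class divided, with Gstm1, Gstm2, Gstm3, Gstm4 and Gstm6 between 1.61 and 2.03 on the mean and Gstm5 at -2.32 and -2.66. Gstp1, the pi class enzyme, read 2.73 and 2.90, and Gsto2 read -2.91 and -3.06. By the route through SVF Gstm1 (1.19) and Gstm5 (-1.63) lost their calls.

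Genes of the initial segment, the first part of the duct, depend on factors that arrive from the testis in luminal fluid and act through the kinase ROS1 and ERK signalling. Of 22 such genes listed, 16 were measured, 12 were higher in epididymis and none was higher in testis. The median was 2.29. Ovch2 read 4.96 and 3.94 and Adam7, a membrane protein passed on to spermatozoa, read 4.56 and 3.98. Targets and brakes of ERK signalling were among the 12, with Spry2 at 3.26 and 3.12 and Etv5 at 1.75 and 1.19.

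Epithelial structure had the highest share on the epididymal side after the Pate family. Of 33 measured genes of epithelial identity, 28 (84.8%) were higher in epididymis and none was higher in testis, with a median of 2.41. Cd24a read 4.77 and 4.20, the keratin Krt8 read 4.44 and 3.94, its partner Krt18 read 4.32 and 3.25, and Cdh16 read 3.64 and 3.69. E-cadherin, Cdh1, was higher on both arrays but by different amounts, 3.83 and 1.96. Claudins, the proteins that set the permeability of tight junctions, gave 12 of 21 higher in epididymis. Cldn2, a pore-forming claudin, read 4.77 and 4.85, Cldn7 read 3.05 and 3.60, and Cldn3 read 3.23 and 2.93. Cldn11, the claudin of the Sertoli cell barrier, was the exception at -1.93 and -2.29.

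Genes for ion and water transport were less one-sided. Of 30 measured, 7 (23.3%) were higher in epididymis and 22 met the rule in neither direction. The 7 included the potassium channel Kcnj16 (4.63 and 3.97), the carbonic anhydrases Car2 (3.73 and 3.17) and Car4 (3.32 and 3.57), the chloride-bicarbonate exchanger Slc26a3 (2.29 and 3.90), the bicarbonate transporter Slc4a4 (2.92 and 2.46) and the sodium channel subunit Scnn1a (2.24 and 2.70). Aqp11 was higher in testis, with -2.72 and -3.50. Carriers of amino acids and carnitine gave 8 of 22 higher in epididymis, among them Slc38a5 (4.36 and 3.75), the glutamate carrier Slc1a1 (3.92 and 2.89), Slc1a5 (2.97 and 3.41) and Slc7a5 (2.64 and 2.31). The carnitine transporters Slc22a16 (-4.10 and -4.73) and Slc22a21 (-3.73 and -2.99) lay on the testicular side.

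The cell types of the duct were read from their marker lists. Of 20 principal cell genes, 12 were higher in epididymis and none was higher in testis, led by Defb1, Ly6g5c (mean 4.51) and Cst11. Of 21 genes of narrow and clear cells, 10 were higher in epididymis and 2 in testis, with a median of 0.92 on array 1 and 1.63 on array 2. Foxi1, the transcription factor that sets up proton-secreting cells, read 3.38 and 3.21. The proton pump subunits did not move as a block, since Atp6v0d2 read 2.69 and 4.44 and Atp6ap2 3.10 and 2.21, but Atp6v1b1 read -1.69 and -1.40, a call that the route through SVF narrowly ended (-1.16). The other member on the testicular side was Adcy10, the soluble adenylyl cyclase that germ cells also make, at -3.69 and -4.26.

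Basal cell genes were mixed. Perp (3.62 and 4.25), Krt5 (3.14 and 3.09), Krt14 (2.22 and 2.63), Cldn1 (1.24 and 3.35) and Krt15 (1.33 and 1.47) were higher in epididymis, and Sfn was higher in testis at -2.42 and -1.83. Trp63, the master regulator of basal cells, read -2.13 and 2.97, and the integrin Itgb4 read -2.55 and 3.30, so the direct arrays opposed each other. The route through SVF put both in epididymis, with 2.25 and 3.74 for Trp63 and 3.42 and 3.17 for Itgb4. It ended the call of Sfn (-1.54) and raised the median of the 14 basal cell genes from 0.89 to 1.56. Of 24 smooth muscle genes, 12 were higher in epididymis and none in testis, with a median of 1.53. Cald1 read 3.96 and 4.17, Tagln read 4.08 and 3.31, Myh11 read 3.96 and 3.07, and Acta2 read 3.64 and 2.83.

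Hox genes encode transcription factors that lay down position along the body axis and stay on in the ducts of the urogenital tract. Of 36 measured Hox genes, 13 (36.1%) were higher in epididymis, 2 were higher in testis and 21 met the rule in neither direction. The Hoxb cluster held 6 of the 13 as an uninterrupted stretch. Hoxb6 stood far above the rest, followed by Hoxb5 with 3.53 and 3.94, Hoxb2 with 2.45 and 3.11, Hoxb7 with 1.91 and 2.06, Hoxb4 with 1.10 and 2.43, and Hoxb3 with 1.28 and 1.90. The genes on either side of this stretch that were measured, Hoxb1 (0.38 and 1.08) and Hoxb9 (0.36 and 1.22), reached 2-fold on array 2 alone.

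In the Hoxa cluster Hoxa3 (2.40 and 2.25), Hoxa10 (1.89 and 2.38) and Hoxa11 (1.37 and 3.75) were higher in epididymis, and in the Hoxd cluster Hoxd3 (1.26 and 2.09), Hoxd4 (1.64 and 3.26), Hoxd8 (1.58 and 1.10) and Hoxd9 (1.71 and 1.47). No measured Hoxc gene was higher in epididymis, and Hoxc9 was higher in testis at -2.39 and -1.15. The last genes of the clusters were not on the epididymal side. Hoxa13 was higher in testis at -1.66 and -1.11, Hoxb13 read -1.22 and -0.36, Hoxc13 read 0.70 and -0.22, and Hoxd13 read 0.38 and -0.68. The remaining members, Hoxa2, Hoxa4, Hoxa5, Hoxa6, Hoxa7, Hoxa9, Hoxc4, Hoxc5, Hoxc6, Hoxc8, Hoxc10, Hoxc12, Hoxd1, Hoxd10, Hoxd11 and Hoxd12, met the rule in neither direction. By the route through SVF neither call for testis held, with means of -0.80 for Hoxa13 and -0.65 for Hoxc9, and Hoxa3 (1.60) and Hoxa10 (1.87) each missed the rule in 1 orientation. Hoxb1 met the rule by that route, at 1.28.

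**Figure D3:**
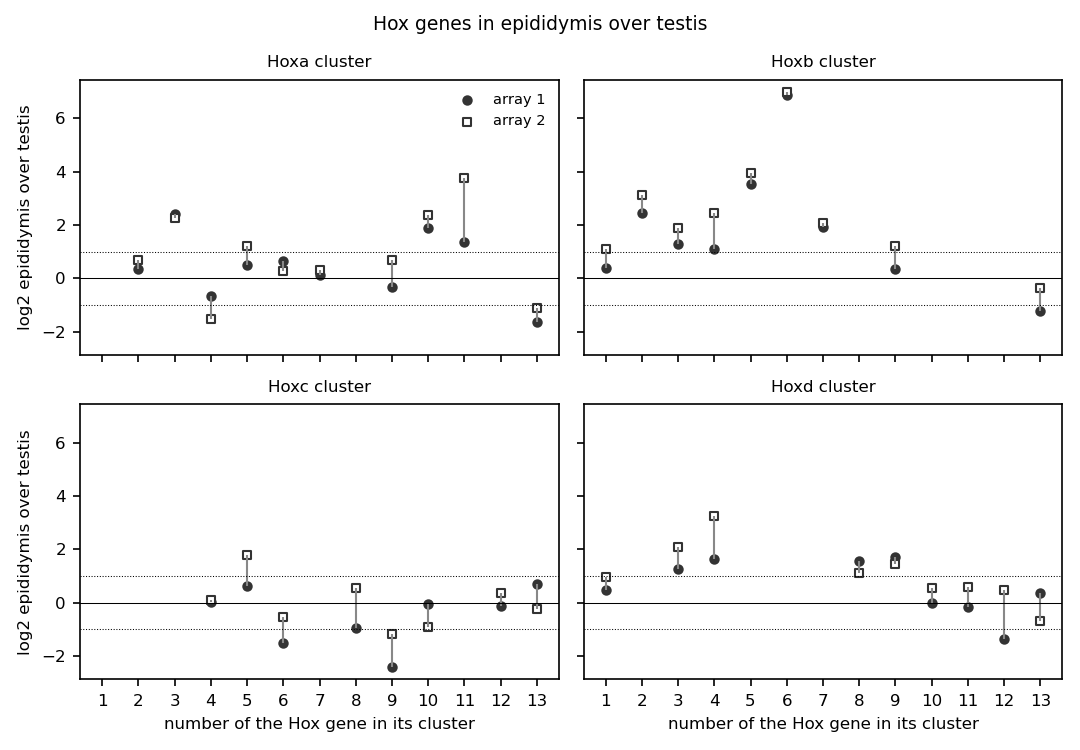
Log2 ratio of epididymis over testis of each measured Hox gene against its number in the cluster, 1 panel per cluster, with array 1 as filled circles, array 2 as open squares and dotted lines at 2-fold. Genes 2 to 7 of the Hoxb cluster lie above the upper line on both arrays, with Hoxb6 near 7.

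Other transcription factors of the urogenital ducts went both ways. Of 32 measured, 9 (28.1%) were higher in epididymis and 4 in testis, with a median of -0.05 that changed sign between arrays (-0.23 and 0.27). Those on the epididymal side included Cebpb (3.02 and 4.10), Gata3 (3.03 and 3.61), Pax8 (3.25 and 2.79) and Emx2 (2.58 and 2.42), the last 2 with roles in the formation of the urogenital ducts. Irx5 (-3.35 and -3.65) and Id4 (-2.15 and -2.17) were on the testicular side.

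Steroid receptors and genes that respond to steroids were few. Of 14 measured, 5 were higher in epididymis: the G protein coupled oestrogen receptor Gper1 (2.34 and 4.27), Sgk1 (2.77 and 3.00), Hsd11b1, which activates glucocorticoids (2.63 and 3.13), Fkbp5 (2.86 and 2.49) and Hsd17b11 (2.35 and 1.76). The oestrogen receptor Esr2 (-1.17 and -1.83) and Hsd17b3, which makes testosterone (-2.40 and -3.43), were higher in testis. Esr1, the receptor that controls fluid uptake in the efferent ducts, read 0.22 and 1.15 and did not meet the rule. The median of this list was -0.21, and it changed sign between the arrays, with -0.14 and 0.10.

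Germ cell genes filled the testicular side, and the share higher in testis differed by stage. Of 23 genes of spermatogonia, the stem and dividing cells at the base of the tubules, only 4 (17.4%) were higher in testis, close to the 18.0% over all genes, and 3 were higher in epididymis. Rhox13 read -2.80 and -3.17, Taf7l read -2.92 and -3.24, and Tex19.1 read -1.99 and -4.53. The 3 on the epididymal side were Gfra1 (3.83 and 3.42), the receptor of the niche factor GDNF, Cdh1 and Etv5, and the latter 2 also stand in epithelial and duct lists.

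Genes of meiotic prophase, when homologous chromosomes pair, gave 29 of 36 (80.6%) higher in testis and none higher in epididymis, with a median of -2.76. The cohesin gene Smc1b read -4.43 and -4.81, Sycp1, a part of the synaptonemal complex, read -3.58 and -4.27, and Syce3 read -3.45 and -4.08. Rec8, another meiotic cohesin, stayed at -0.32 and -0.93. Genes of germ granules and of the piRNA pathway, which silences transposons, gave 19 of 24 (79.2%), with Gtsf1 at -4.28 and -4.69, Piwil1 at -4.30 and -4.53, Dazl at -3.88 and -4.26 and Ddx4 at -3.93 and -4.17. Of 28 germ cell transcription factors, 20 (71.4%) were higher in testis and none in epididymis. Among them were Sox5 (-3.94 and -4.44), Rfx3 (-4.41 and -3.49), Sox30 (-3.45 and -4.16) and Fhl5 (-3.48 and -3.99).

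Of the spermatid lists, the tail sheath and the acrosome gave the highest shares of all germ cell lists, and the axoneme and sperm chromatin lists gave less than meiotic prophase. Of 25 genes of the fibrous sheath and outer dense fibres of the tail, 24 (96.0%) were higher in testis, with a median of -3.33. Akap4, the main protein of the fibrous sheath, read -3.63 and -4.33, Hook1 read -3.47 and -4.80, and Ropn1l read -3.45 and -4.09. Of 35 genes of the acrosome and of egg binding, 32 (91.4%) were higher in testis, among them Spaca1 (-3.45 and -5.31), Izumo3 (-4.05 and -4.05) and Adam3 (-3.54 and -4.52). Gopc, a Golgi protein made in many tissues, was the only member higher in epididymis, at 1.69 and 1.24. Axoneme and motility genes gave 34 of 51 (66.7%), with Iqub, Catsper3 (-3.25 and -4.93), a subunit of the sperm calcium channel, and Spag17 (-3.50 and -4.67). Set against SVF, on arrays that share the same RNAs, the acrosome list had a median of 4.16 for testis and 1.16 for epididymis.

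Sperm chromatin genes were the exception among late germ cell lists. Only 9 of 19 (47.4%) were higher in testis, with a median of -1.91, -1.60 on array 1 and -2.58 on array 2 (-1.24 by the route through SVF). Cdyl read -3.97 and -4.45, the linker histone H1f7 read -3.51 and -4.17, and Hmgb4 read -3.46 and -4.02. Protamines and transition proteins replace histones in spermatids and are among the most abundant transcripts of the testis. Prm1 read -0.95 and -3.08, Prm2 read -0.17 and -2.34 and Tnp2 read -0.94 and -2.88, so these genes, which were picked after their values were seen, passed 2-fold on array 2 alone. Prm3 read -2.50 and -3.03 and met the rule.

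The ADAM proteases and the serine proteases show the split within families. Of 28 ADAM genes, 15 (53.6%) were higher in testis and 4 in epididymis. Adam32 (-3.75 and -4.55), Adam30 (-3.91 and -4.32), Adam3 and Adam2 (-3.71 and -4.03) stood opposite Adam7, Adam9 (1.72 and 1.61) and Adam15 (1.86 and 1.15). Of 62 trypsin-like serine proteases, 18 (29.0%) were higher in testis, led by Prss21 (-2.64 and -5.15) and Prss37 (-3.54 and -4.09), and 5 in epididymis. Their median, 0.05, was negative on each array alone (-0.06 and -0.09), so no direction can be given for the family.

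Symbols also carry the library of origin for clones without a gene name. Of 987 genes whose RIKEN clone name comes from a testis library, 591 (59.9%) were higher in testis and 3 in epididymis, with a median of -1.99. Only 4 genes carried a clone number of the epididymis library, and of these 9230110K08Rik (2.63 and 2.45) and 9230117E06Rik (2.38 and 1.36) were higher in epididymis. Of 65 genes named Spata, Spag or Tex for their place of discovery, 55 (84.6%) were higher in testis. Spag11a, which by structure is related to the defensins, was the only member on the epididymal side at 4.20 and 4.10. Because these names record where a transcript was found, their counts repeat earlier knowledge of the tissue.

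The somatic cells of the testis gave smaller shares than the late germ cells. The Sertoli cell list of 31 genes had 10 (32.3%) on the testicular side and 4 on the epididymal side, with a median of -0.18. Tsx read -3.83 and -4.55, Amhr2, the receptor of the hormone AMH, read -2.82 and -3.82, and Dhh read -2.66 and -3.15. Clu (2.04 and 1.48) and Trf (2.24 and 1.78), abundant products of Sertoli cells that epididymal epithelium also makes, were higher in epididymis. The route through SVF ended the calls of Dhh (-1.82), Clu (1.64) and Trf (1.08). The Leydig cell list of 22 genes had 10 (45.5%) on the testicular side and 6 on the epididymal side, with a median of -1.03 (-0.57 on array 1 and -1.27 on array 2). Bhmt, an enzyme of methionine metabolism, was the lowest at -3.68 and -4.10, followed by steroidogenic enzymes, with Hsd3b1 at -3.14 and -3.29 and Cyp11a1 at -2.62 and -3.25, and Pdgfra, which fibroblasts share, read 4.05 and 3.51.

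Genes of dividing cells leaned to testis. Of 40 mitotic cell cycle genes, 18 were higher in testis and 3 in epididymis, with a median of -1.18. Ttk, a kinase of the spindle checkpoint, read -4.03 and -4.75, Bub1 read -2.89 and -4.06, and Top2a read -3.01 and -3.91. Cyclin D1, Ccnd1, went the other way with 3.16 and 2.67, together with its partner Cdk4 (1.40 and 2.05) and the replication gene Mcm4 (1.82 and 1.38).

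Genes made in most cells allow the germ cell forms of an enzyme to be set beside the somatic forms. Germ cells use several copies that arose by retroposition or duplication, some of them from genes on the X chromosome, which is silenced during male meiosis. Among 33 pairs with both forms measured, the germ cell form was higher in testis in 25 and the somatic form was higher in epididymis in 16, and 11 pairs met both conditions. In 33 of 33 pairs the mean ratio of the 2 arrays was lower for the member listed as the germ cell form. By the route through SVF this order turned for Ldhc (-0.55) and Ldha (-1.63), and narrowly for Ybx2 (-1.47) and Ybx1 (-1.55). On array 1 alone Ldhc (-1.03) also lay above Ldha (-1.37). The pairs were chosen with earlier results of these data known, and not every member so listed is confined to germ cells. Among these, Cox4i2 (-0.40 and -0.25), Prkaca (0.43 and -0.05) and Chml (-0.01 and 0.01) met the rule in neither direction. Phosphoglycerate kinase gave -3.22 and -4.10 for Pgk2 and 2.13 and 1.75 for the X-linked Pgk1. The centrins gave -3.92 and -3.88 for Cetn1 and 2.54 and 1.81 for the X-linked Cetn2. The autosomal pair Gapdhs and Gapdh gave -3.28 and -3.93 against 2.22 and 1.32.

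The size of the gap varied widely. The cohesin pair was the widest, with Smc1b at a mean of -4.62 and the X-linked Smc1a at 2.01. The narrowest was lactate dehydrogenase, where Ldhc (-1.03 and -2.36) and Ldha (-1.37 and -1.82) were both higher in testis, and their SDs of 0.94 and 0.32 overlap. Ldhc lost its call by the route through SVF (-0.55). Ccna2 and Stag2 were the other somatic forms higher in testis. Among the 10 pairs with an X-linked somatic form, that form was higher in epididymis in 7. Among the 23 autosomal pairs it was higher in 9. Pdha2, the testis form of pyruvate dehydrogenase, did not favour testis, with 0.95 and -0.09, while its X-linked parent Pdha1 read 2.87 and 3.54.

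**Figure D4:**
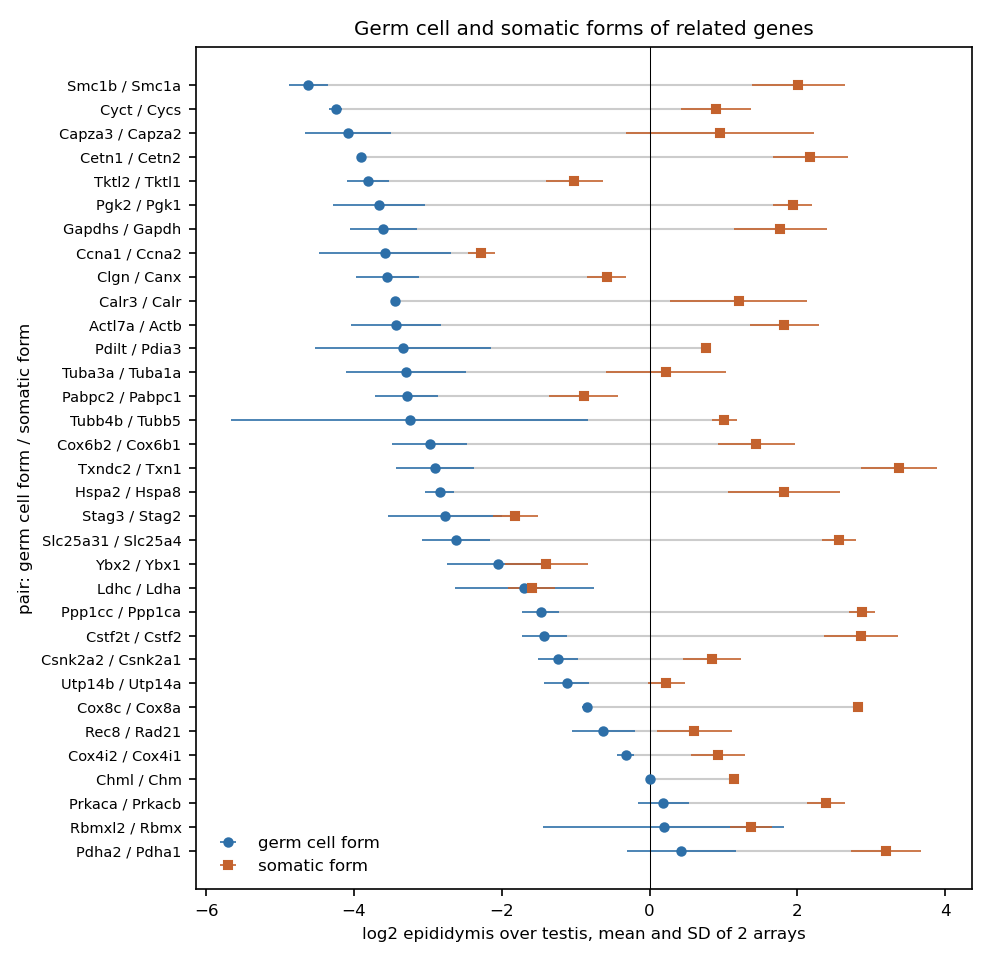
Mean log2 ratio of epididymis over testis of the members listed as germ cell form (circles) and somatic form (squares) of 33 gene pairs, with bars for the SD of 2 arrays and a line joining each pair. In all 33 pairs the circle lies to the left of the square, and Ldhc and Ldha nearly coincide.

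X-linked genes of general cell function leaned to epididymis. Of 43 measured, 25 (58.1%) were higher in epididymis and 3 in testis, with a median of 1.48. Rpl10 read 4.07 and 3.85, Phf6 read 3.46 and 4.29, Cox7b read 3.85 and 3.41, and Hprt read 2.74 and 2.37. The 3 on the testicular side were Cul4b (-2.01 and -3.50), Prdx4 and Stag2 (-1.60 and -2.03). A neighbouring stretch of 5 Armcx genes, also on the X chromosome, was higher in epididymis throughout, from Armcx6 (1.68 and 1.89) to Armcx1 (3.45 and 4.37).

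Ribosomal protein genes gave 30 of 73 (41.1%) higher in epididymis and 1 higher in testis, with a median of 1.15. The X-linked members Rpl10, Rpl36a (4.25 and 3.37) and Rps4x (4.17 and 3.12) were the 3 highest. Rpl39l, the autosomal copy of the X-linked Rpl39, was the single member higher in testis at -4.20 and -4.46. The respiratory chain was nearer to the background, with 17 of 76 (22.4%) higher in epididymis and 2 in testis. Cox8a (2.87 and 2.77) and the X-linked Ndufb11 (2.32 and 3.56) were on the epididymal side, and the germ cell subunits Cox7b2 (-3.22 and -4.66) and Cox6b2 (-2.62 and -3.33) were on the testicular side. Proteasome and ubiquitin genes gave 3 of 34 (8.82%) in epididymis, below the 14.3% over all genes, and 6 (17.6%) in testis, close to the 18.0% over all genes. Psma8, the meiotic proteasome subunit, read -3.48 and -4.63.

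Cells that both organs contain besides their own were read from further lists. Fibrous matrix genes gave 13 of 34 (38.2%) higher in epididymis and none higher in testis, with Dcn at 3.18 and 2.95 and Mgp at 3.50 and 2.56. Collagens gave 12 of 42 higher in epididymis, with Col15a1 at 3.44 and 2.31 and Col3a1 at 3.20 and 2.50, and 3 higher in testis, which were Col20a1 (-3.54 and -2.64), Col2a1 (-2.41 and -2.69) and Col9a1 (-2.08 and -1.99). The median of the collagens was 0.04. Antigen presentation genes gave 10 of 20 higher in epididymis, with B2m at 4.13 and 2.68, Cd74 at 4.03 and 2.28 and H2-D1 at 2.84 and 2.89. By the route through SVF the medians fell from 1.04 to 0.43 for the matrix list and from 1.57 to 0.88 for antigen presentation, and Cd74 (0.62), Col15a1 (0.80) and Col3a1 (1.38) lost their calls.

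Macrophage genes gave 10 of 23 higher in epididymis, with Ctss at 2.89 and 2.96 and Adgre1 at 2.14 and 1.99. Aif1 (-2.76 and -3.80), Msr1 (-1.23 and -2.47) and Fcgr1 (-1.24 and -1.33) were higher in testis. Lymphocyte genes gave 5 of 24 (20.8%, near the 14.3% over all genes) higher in epididymis. Among the 5 were Klrb1c (2.47 and 2.35), Ighm (2.37 and 2.07), Cd3g (1.40 and 2.43) and Nkg7 (1.98 and 1.49). Endothelial genes gave 4 of 25, near the background, and the lymphatic markers opposed each other, with Lyve1 the highest at 3.20 and 2.50 and Flt4 the single member higher in testis at -1.61 and -2.12. Chemokines gave 10 of 34 higher in epididymis, but their median of 0.59 became -0.07 by the route through SVF, and Ccl6 (2.69 and 3.44) became -0.12. The same route lowered the macrophage median from 1.18 to 0.45 and the endothelial median from 0.27 to 0.01. It ended the calls of Ighm (0.49), Adgre1 (1.49), Cd3g (1.06) and Nkg7 (1.04), the last 2 with opposite signs in its 2 orientations.

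Markers of neighbouring tissues were read in the same way. The adipocyte list of 22 genes had 11 on the epididymal side and 2 on the testicular side, with a median of 1.38. Scd1 read 3.37 and 3.71, Fabp4 read 3.69 and 2.93, and Plin4 read 2.88 and 2.43, while Lipe read -1.65 and -1.87. Their part in the matrix, immune and other results was not tested. Of 13 mesothelial genes, 5 were higher in epididymis, led by Upk1b (5.37 and 5.67), although Msln (0.39 and 0.95) and Wt1 (-1.60 and 0.05) met the rule in neither direction. Of 15 genes of seminal vesicle, prostate and vas deferens, 3 (20.0%, near the 14.3% over all genes) were higher in epididymis, which were Svs3a (3.31 and 3.61, its call lost by the route through SVF at 1.40), Mme (1.78 and 1.69) and Azgp1, and Svs5 was higher in testis at -1.32 and -1.82.

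Blood and cilia gave other patterns. Of 8 erythroid genes, Hba-a1 (1.71 and 1.44) was higher in epididymis and Hemgn (-3.49 and -4.14) in testis, and the other 6 met the rule in neither direction. The value of Hba-a1 became -0.25 by the route through SVF. Genes of ciliated cells, which line the efferent ducts, gave 9 of 14 (64.3%) higher in testis and none higher in epididymis. These genes, such as Tekt1 (-3.07 and -3.23), Rsph1 (-2.89 and -3.28) and Foxj1 (-1.36 and -2.17), also serve the sperm tail. Immediate early and stress genes, which respond to handling of tissue, gave 12 of 35 (34.3%) higher in epididymis, and Egr2 with 5.67 and 6.68 was the highest. Their median of 0.52 became 0.22 by the route through SVF. Klf4 (-2.80 and -3.95) and Klf2 (-4.23 and -1.05) were higher in testis.

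**Figure D5:**
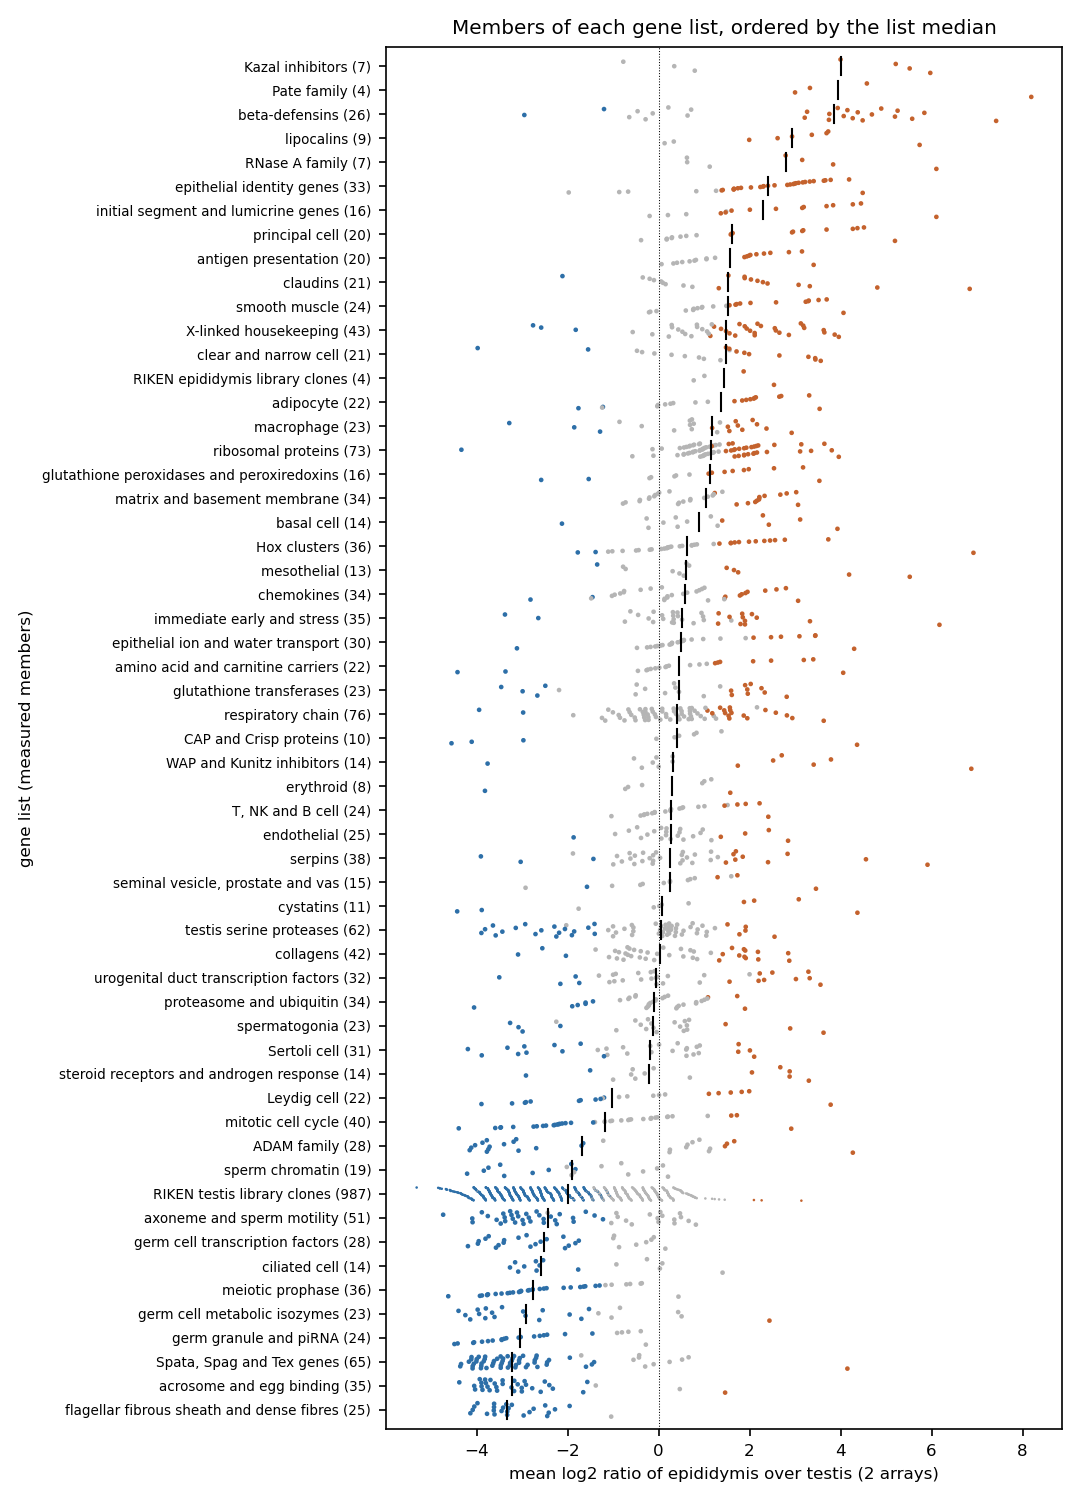
Mean log2 ratio of epididymis over testis of every measured member of the gene lists (points), with the list median as a black bar, the number of members in brackets and colours for higher in epididymis (orange), higher in testis (blue) and neither (grey). The Kazal, Pate, beta-defensin, lipocalin and RNase A lists and the epithelial identity genes lie at the top with medians above 2.29, the tail sheath and acrosome lists lie at the bottom, and several families such as the serpins and cystatins hold members at both ends.

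Genes were next placed in their order along the chromosomes by RefSeq. Among 18307 placed genes there were 26 runs of 4 or more neighbouring measured genes that were all higher in epididymis, holding 124 genes. The same number of runs, 26, with 113 genes, was found for testis. The pool of called genes was larger for testis (3342) than for epididymis (2653), so equal counts do not show equal clustering. The number of runs that a random gene order would give was not worked out, so adjacency by chance was not tested. The longest epididymal runs held 7 genes and the longest testicular run 6. A run of defensins spanned Defb1, Defb2, Defb10, Defb9, Defb11, Defb15 and Defb35, with means from 3.27 to 5.84. Another held Defb40, Defb37, Defb38, Defb12, Defb34 and Spag11a.

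Lipocalin genes formed a run with their neighbours, Tmem141 (2.27 and 1.63), the ficolin Fcna (2.37 and 2.51), Lcn8, Lcn5, Lcn10 and Obp2a (4.31 and 3.13). Rnase10, Rnase9, Rnase4, Eddm3b (3.94 and 3.37) and Rnase6 formed another, and so did the 4 Pate genes. Not every run was a family of copies. Krt8 and Krt18 opened a run that went on through Eif4b, Tns2, Spryd3, Igfbp6 (0.64 by the route through SVF, its call lost) and Csad, genes of unlike function, and Erbb2 and Grb7 lay in a run with Pnmt, Pgap3 and Mien1. On the testicular side, families formed runs too, such as Hyal6, Hyal4, Spam1 and Hyal5 of the hyaluronidase family (with the neighbour Wasl), Adam18, Adam3, Adam5 and Adam32, and Iqcf1, Iqcf3, Iqcf5 and Iqcf4. The longest testicular run, from Disc1 to Ntpcr, held genes of different families with means from -3.22 to -1.67.

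Promoter sequence was compared with the ratio for the 12174 measured genes that had exactly 1 RefSeq promoter of GRCm38.p6, a window of 300 bases with 250 before the start and 50 after. Of 9 short motifs searched on both strands, the motif of RFX factors, GTTGCCAT, differed most in relative terms between the sides. It was present in 60 of 2218 promoters of genes higher in testis (2.71%), in 11 of 1716 of genes higher in epididymis (0.64%) and in 154 of all 12174 (1.27%). Among 686 promoters of genes called for testis with a mean of at least 8-fold the share was 3.21%. Among transcripts of RFX factors, Rfx3 (-4.41 and -3.49), Rfx2 (-1.49 and -2.01) and Rfx4 (-2.57 and -2.84) were higher in testis. Rfx1, with -0.95 and -1.04, did not meet the rule. Rfx1, Rfx2 and Rfx4 were picked by name, and other RFX genes are not given here. A link between these transcripts and the motif was not tested. A match is a run of letters and was not tested as a binding site.

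The cyclic AMP response element TGACGTCA, a site of spermatid promoters, differed less, with 3.38% of promoters of genes higher in testis, 2.10% of those of genes higher in epididymis and 2.58% of all. Among the 686 promoters of genes called for testis with a mean of at least 8-fold the share was 2.19%, below that of all. It stood in 0 of the 72 promoters of genes called for epididymis with a mean of at least 16-fold. The C/EBP motif TTGCNNAA stood in 13 of the 72 promoters of genes called for epididymis with a mean of at least 16-fold (18.1%), against 9.54% of all and 9.15% of all genes higher in epididymis. Among the classes of called genes, the share stood above that of all genes only at the far end of the epididymal tail, and 13 promoters are few. Genes that met the rule in neither direction gave 9.81%. Among transcripts of C/EBP factors, Cebpb was higher in epididymis, as given above, while Cebpa (0.59 and -0.28) and Cebpd (-0.69 and 0.51) met the rule in neither direction. The median number of CpG pairs in the window was 18 for genes higher in epididymis, 14 for genes higher in testis and 15 for all, and it was 7 in both extreme classes. The GC box GGGCGG followed the same order, with 61.3% for epididymis, 45.9% for testis and 50.5% for all. The other motifs had smaller relative gaps. TATAAA stood in 9.44% and 9.33% of promoters of genes higher in epididymis and testis, TGTTCT in 13.3% and 17.4%, TGTTTAC in 2.68% and 2.52%, TGANTCA in 6.06% and 6.13%, and CCGGAAG in 13.2% and 12.4%. At the far end of the epididymal tail some of these shares differed, with TGTTCT in 16 of the 72 promoters (22.2%, against 15.9% of all and 19.4% at the far testicular end) and TGANTCA in 8 of the 72 (11.1%, against 6.97% of all).

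The promoters of 3 genes with a low ratio and the RFX motif are printed to show these letters in place. They lay at positions 245, 258 and 232 of the window, whose first 250 bases lie before the start. The match is in capitals, and each sequence is written 5′ to 3′ on the strand of the gene. The ratios of these genes were -3.75 and -4.96 for 1700064M15Rik, -3.43 and -4.78 for Glipr1l1, and -3.95 and -4.17 for Mroh9.
1700064M15Rik, chr12:99627925-99628224, strand -: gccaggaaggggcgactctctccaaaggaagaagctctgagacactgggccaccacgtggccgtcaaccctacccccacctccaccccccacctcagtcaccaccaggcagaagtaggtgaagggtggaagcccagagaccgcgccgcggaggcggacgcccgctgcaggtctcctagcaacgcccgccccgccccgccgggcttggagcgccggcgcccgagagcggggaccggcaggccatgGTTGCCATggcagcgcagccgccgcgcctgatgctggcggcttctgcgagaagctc
Glipr1l1, chr10:112059939-112060238, strand +: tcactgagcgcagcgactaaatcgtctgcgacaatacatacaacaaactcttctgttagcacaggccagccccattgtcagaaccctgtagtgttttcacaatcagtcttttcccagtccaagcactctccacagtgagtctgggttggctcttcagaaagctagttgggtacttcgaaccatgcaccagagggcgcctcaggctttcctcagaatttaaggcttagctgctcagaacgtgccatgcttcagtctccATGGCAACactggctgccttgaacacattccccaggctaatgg
Mroh9, chr1:163085621-163085920, strand -: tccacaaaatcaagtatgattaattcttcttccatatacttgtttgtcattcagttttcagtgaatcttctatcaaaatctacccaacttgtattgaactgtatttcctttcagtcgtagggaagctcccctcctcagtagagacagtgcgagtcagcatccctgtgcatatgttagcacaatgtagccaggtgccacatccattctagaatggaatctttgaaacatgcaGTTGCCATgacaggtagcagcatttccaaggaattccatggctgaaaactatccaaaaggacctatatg

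Serpinc1 (5.96 and 5.86), Defb10 (7.09 and 4.59) and Hpdl (5.40 and 4.77) were 3 genes with a high ratio and the C/EBP motif. Their matches, in capitals, lay at positions 255, 46 and 86. Positions over all matches were not compared. These 6 genes were chosen for the match and the ratio. The choice was not made from every gene with the motif, so they need not be the most extreme.
Serpinc1, chr1:160978333-160978632, strand +: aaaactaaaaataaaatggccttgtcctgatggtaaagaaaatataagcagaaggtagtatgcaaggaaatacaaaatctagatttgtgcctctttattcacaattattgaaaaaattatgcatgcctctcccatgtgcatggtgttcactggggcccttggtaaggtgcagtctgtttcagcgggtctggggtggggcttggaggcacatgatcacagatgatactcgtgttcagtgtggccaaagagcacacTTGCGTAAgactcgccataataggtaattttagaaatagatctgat
Defb10, chr8:21858651-21858950, strand +: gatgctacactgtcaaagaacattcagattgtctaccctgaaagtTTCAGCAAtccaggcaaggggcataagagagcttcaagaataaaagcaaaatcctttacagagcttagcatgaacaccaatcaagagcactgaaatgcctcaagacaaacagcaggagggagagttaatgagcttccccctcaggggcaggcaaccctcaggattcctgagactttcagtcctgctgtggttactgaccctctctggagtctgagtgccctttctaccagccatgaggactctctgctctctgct
Hpdl, chr4:116821459-116821758, strand -: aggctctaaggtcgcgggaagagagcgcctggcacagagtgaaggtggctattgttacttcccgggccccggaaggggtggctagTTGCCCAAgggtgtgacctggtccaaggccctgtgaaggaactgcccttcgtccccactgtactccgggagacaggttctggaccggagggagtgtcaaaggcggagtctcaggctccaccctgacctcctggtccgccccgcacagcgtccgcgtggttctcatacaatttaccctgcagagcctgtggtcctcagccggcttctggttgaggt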

How the data were processed

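The deposited table holds log ratios of 25344 probes on 6 arrays of total RNA, read here as log2. Per the labels, Qiagen was used for extraction, Ambion for labelling and Cy3 and Cy5 as dyes. Neither the log base nor the direction is stated there, and how background was corrected and how arrays were normalized is also not given in the sources used here. As deposited, the 2 arrays correlated at Pearson's r of -0.77 over all probes, so the sign of the array with testis in Cy5 was turned. Reading the direction the other way would exchange the tissues throughout.

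The platform annotation, whose symbols can be old, lists 21112 probes. Of these, 20456 were updated by gene ID and 220 by symbol through RefSeq (GRCm38.p6), 248 kept their name, 158 had non-mouse symbols and 30 several genes and stayed unnamed, like the 4232 unlisted probes. A gene's value is the mean of its probes (1626 genes had 2 or more, and in 38 the probes met the rule in opposite directions). Spot intensities were not analysed here. Precision is limited by having 2 arrays.

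The rule was at least 2-fold on both arrays. The 57 gene lists, the gene pairs and the motifs were chosen with earlier results of these data known. Named genes were the 12 highest and 12 lowest, up to 6 members per list with the largest ratio plus up to 3 against the list's median, whole lists of at most 14 members, all Hox genes, all pairs, the 5 widest disagreements and runs of 4 or more neighbours. Examples are given from these. Genes outside this choice are said to be so or were chosen for a printed promoter. Rfx1, Rfx2, Rfx4, Cebpa and Cebpd were also outside it and were picked by name beside the motifs. Alternatives were median centring, single probes, genes with 1 probe, the probe with the largest ratio, a least-squares loop estimate, the route through SVF, 2-fold on the mean alone, 4-fold, each array left out, a natural logarithm and genes with arrays within 1 of each other.

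Python 3.11.15 with pandas 2.3.3 was used. Tested on simulated data for epididymis over testis with 18545 genes, the rule called 22 of 18345 unchanged genes. Of 50 genes changed by each amount it called 0 at a log2 change of 0.5, 33 at 1.5, 48 at 2.0 and 50 at 3.0. The simulated noise was normal and independent on each array. It had the same spread for every gene, set from the median SD between the arrays. In the data 1931 genes (10.4%) had an SD above 1, so these counts do not give the share of false calls here.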

Additional observations from a re-analysis of the deposited data

How the results depend on the processing

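At 4-fold on both arrays the counts were 926 genes for epididymis and 1781 for testis. With either array left out they ranged from 3668 to 3764 for epididymis and from 4477 to 4505 for testis, since the rule then rests on 1 array. Apart from 4-fold, every alternative kept both counts within 1.5 times, those with an array left out included. The route through SVF, which uses the other 4 arrays of the same RNAs, gave 2749 and 3588 genes, sharing 2238 (84.4%) and 3016 (90.2%) of those named here, with 1 opposite call. It kept 520 of 584 named genes past the rule and turned the sign of 1700074P13Rik (-0.034), Ccl6 (-0.12), Cst12 (-0.18) and Hba-a1 (-0.25), and the cause was not tested. None of the 33 lists with a median of at least 1 in size changed sign under the 10 alternatives run for lists. Medians near 0 did: serpins, urogenital duct transcription factors, steroid receptors, serine proteases, erythroid genes, collagens, chemokines and the proteasome. Of the 10, the natural logarithm only rescales values and cannot change a sign. Median centring took off 0.05 on array 1 and -0.01 on array 2, too little to turn a median of at least 1. Each ratio sets both tissues side by side on 1 array, but 1 RNA sample stands for each tissue, so no paired test across animals was possible. Without replicate animals, no difference here carries a biological error.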

Other observations

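Probes without a gene name here met the rule less often than named genes in both directions, and more so for epididymis. Of 4420 such probes, 289 (6.54%, against 14.3% over all genes) were higher in epididymis by the same rule. In testis 603 were higher (13.6%, against 18.0% over all genes). Their means ran from -4.84 to 6.44. Of the 20924 named probes taken singly, 3455 were higher in epididymis and 3630 in testis.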
